A study of Mus musculus with 11 samples.

Results

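The 10 smooth muscle contractile genes Acta2, Myh11, Tagln, Cnn1, Smtn, Mylk, Lmod1, Des, Myocd and Actg2 were followed in the aorta of old male mice with and without dietary nitrate. They were chosen by name, and every probe that carries one of these names was used, which gave 11 probes of the 55681 on the array and 10 of its 36413 gene and transcript names. Smtn has 2 probes, a brighter and a dimmer one, and the other genes have 1 each. All 11 member probes were detected on all 11 arrays.

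The old nitrate treated mice were male C57BL/6 mice, 20 months of age, given 1 g/L sodium nitrate (NaNO3) in the drinking water for 8 weeks, and 5 of them were analysed. The 6 old controls were male C57BL/6 mice of the same age without nitrate. The study's methods state an equal concentration of sodium chloride for controls, whereas the sample labels name none and describe the control arrays as a re-analysis of earlier samples. If the groups were kept or their RNA was prepared at different times, that and treatment cannot be told apart, although every slide held arrays of both groups. Each array came from a separate mouse, and both groups shared strain, sex, age and tissue. The sixth nitrate array that the methods count is not analysed here.

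Smooth muscle cells form most of the media of the aorta. They contract when calcium and calmodulin activate myosin light chain kinase, which phosphorylates the regulatory light chain and lets smooth muscle myosin pull on actin filaments. Genes of this apparatus are switched on by serum response factor (SRF), which binds a DNA element called the CArG box, together with its partner myocardin. Nitric oxide, which can be formed from nitrate by way of nitrite, relaxes these cells by opposing myosin phosphorylation.

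Of the 10 genes, 1 passed the thresholds that the study's methods set, P under 0.05 before adjustment and more than 1.2-fold. This was Lmod1, which codes for leiomodin, a protein that starts actin filaments in smooth muscle. It was 1.24-fold higher in old nitrate treated mice, with an adjusted P value of 0.285 in limma. Of all 23630 detected probes, 9.00% passed the same thresholds, 4.16% higher and 4.85% lower in nitrate treated mice, so a count of 1 in 10 was near the background. After Benjamini-Hochberg adjustment 0.0127% of all detected probes, which is 3 probes, and none of the 10 genes had a limma P value under 0.05, whereas 2 of the 10, Lmod1 and Smtn, had an unadjusted one under 0.05, as had 14.4% of all detected probes. The difference between group means was positive for 9 genes and negative for Myocd. Its median over the 10 genes was 0.15 on the log2 scale, beside 0.01 over all detected probes. In bulk aorta, a different number of smooth muscle cells and a different amount of RNA per cell cannot be told apart.

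Control 1 stood apart from the other mice. It had the lowest level of all 11 mice in 9 of the 10 genes, and in Des it had the highest level of the controls. Averaged over the 10 genes, each taken relative to its own mean, control 1 lay at -0.41 log2 units and the other 10 mice between -0.06 and 0.24, with nitrate treated mouse 1 highest. Without control 1 the median difference over the 10 genes was 0.09, Lmod1 no longer passed with a difference of 0.23, and Myocd passed as lower. Values without this mouse are therefore given beside the results that rest on it.

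The start regions of Acta2, the most widely used marker of the lineage, and of Lmod1 and Smtn, the genes with the smallest limma P values, are shown with the letters of 2 elements known from smooth muscle promoters. RefSeq windows of build GRCm38.p6 were matched by symbol for 6 of the 10 genes, namely Acta2, Cnn1, Des, Lmod1, Mylk and Smtn. The 250 bases before the annotated start are printed 5' to 3' on the strand of the gene, at chr19:34255374-34255623 (minus strand) for Acta2, chr1:135324563-135324812 (plus strand) for Lmod1 and chr11:3539293-3539542 (minus strand) for Smtn. Capitals mark CArG boxes with at most 1 G or C in their core, searched on both strands, and the letters GGAATG or their complement CATTCC, the MCAT element that TEAD factors bind.
Acta2: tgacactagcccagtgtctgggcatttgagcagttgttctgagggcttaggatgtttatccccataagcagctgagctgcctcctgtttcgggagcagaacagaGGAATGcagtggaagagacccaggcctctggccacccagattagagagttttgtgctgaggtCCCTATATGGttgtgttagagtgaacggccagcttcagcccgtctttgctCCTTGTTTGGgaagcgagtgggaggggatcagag
Lmod1: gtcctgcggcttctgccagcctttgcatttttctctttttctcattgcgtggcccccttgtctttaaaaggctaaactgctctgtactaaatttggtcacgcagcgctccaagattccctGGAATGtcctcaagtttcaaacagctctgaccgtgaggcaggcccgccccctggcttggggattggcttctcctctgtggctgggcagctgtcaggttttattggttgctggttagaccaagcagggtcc
Smtn: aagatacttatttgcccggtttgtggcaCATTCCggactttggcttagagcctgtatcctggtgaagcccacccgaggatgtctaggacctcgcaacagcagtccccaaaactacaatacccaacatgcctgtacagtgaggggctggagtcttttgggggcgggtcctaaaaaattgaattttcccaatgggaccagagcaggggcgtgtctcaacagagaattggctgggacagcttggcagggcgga
Acta2 had 2 CArG boxes of this relaxed kind, CCCTATATGG at -84 and CCTTGTTTGG at -34, counted from the annotated start to the first base of the box. Such a box was in 9.98% of the 32851 RefSeq windows, which reach from 250 bases before to 50 after a start, and in none of the other 5 windows. The strict CArG box was in 1.63% of all windows and in none of the 6. The MCAT letters were in 4 of the 6 windows, those of Acta2, Lmod1, Mylk and Smtn, and in 14.7% of all windows. These matches describe letters and not bound sites.

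**Figure D1:**
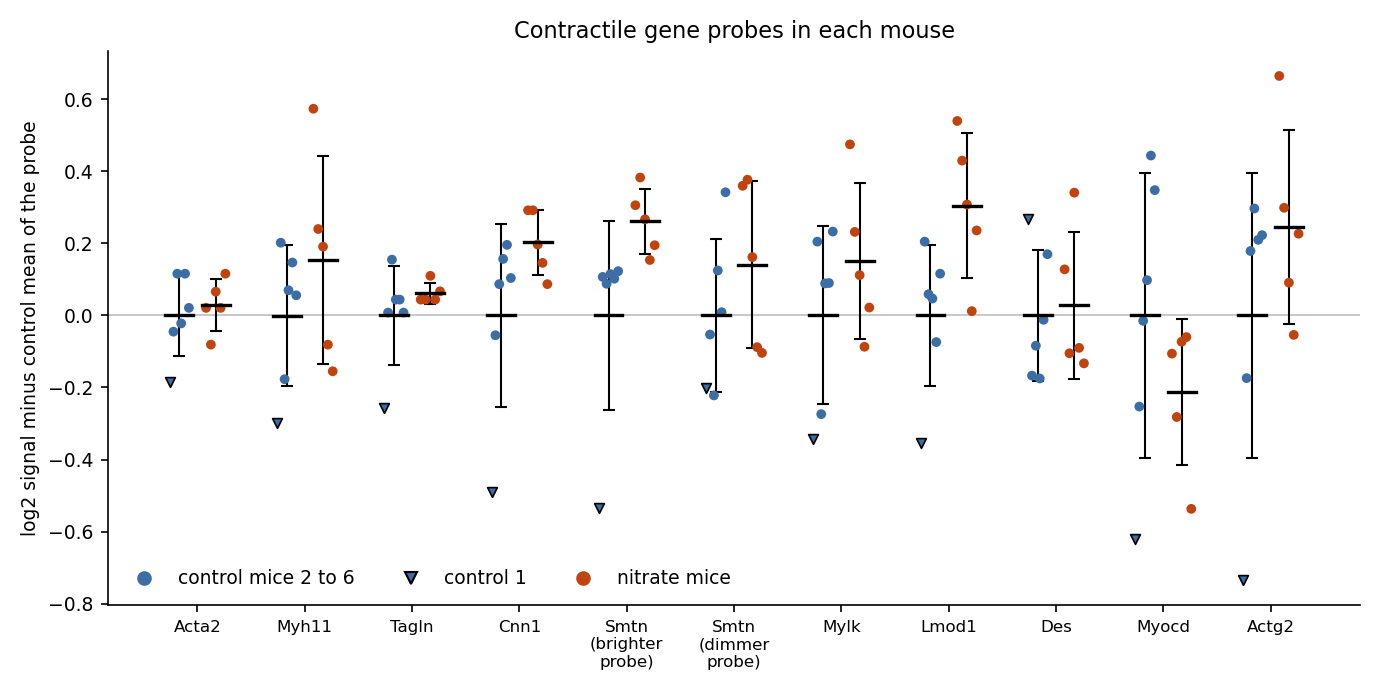
Log2 signal of each member probe in each mouse (vertical axis, relative to the control mean of that probe), with control mice in blue, nitrate treated mice in orange, horizontal bars for group means and error bars for 1 SD (n = 5 nitrate, n = 6 control). Control 1 (triangle) lay lowest in most probes, and the groups were apart only for the brighter Smtn probe.

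The first genes are those of the actin filament. Acta2 codes for smooth muscle alpha-actin, the main actin of vascular smooth muscle. Its probe lies at chr19:34316060-34316119 in the mm9 build and is spotted 10 times on each array. The log2 signal was 17.97, 17.87, 18.02, 17.97 and 18.06 in nitrate treated mice 1 to 5. In the controls the lowest was 17.76 in control 1, the median 17.95 and the highest 18.06. All nitrate values fell inside the control range. The difference was 0.03 ± 0.07 (SE) with a 95% interval of -0.13 to 0.18, which is a fold of 0.917 to 1.13, and P was 0.641 in a two-sided exact permutation test. Without control 1 the difference was -0.01. The SD between the 10 spots of an array had a median of 0.0741, and the SD between mice was 0.0729 in the nitrate group and 0.113 in the controls. The small spread bounds a change in Acta2 signal more tightly than in any other of the 10 genes. Acta2 and Tagln held places 3 to 14 in brightness among the probes of an array, where quantile normalization leaves little room to differ. Scaling to the 75th percentile instead gave differences of 0.08 for Acta2 and 0.10 for Tagln.

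Actg2, the gamma-actin of visceral smooth muscle, was the most variable of the 10 genes and spanned 1.4 log2 units over the mice. The log2 signal was 14.23, 13.87, 13.66, 13.51 and 13.80 in nitrate treated mice 1 to 5. The lowest control was control 1 at 12.83, the median was 13.76 and the highest 13.87. Nitrate treated mouse 1 was above and control 1 far below the other mice, nitrate treated mouse 2 was level with the highest control, and the remaining values overlapped. The difference was 0.25 ± 0.19 (SE), with a 95% interval of -0.17 to 0.66 and an exact permutation P of 0.292. It was 0.10 without control 1 and 0.14 without nitrate treated mouse 1.

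Lmod1 was measured by a probe at chr1:137264581-137264640 (mm9). The log2 signal was 10.08, 9.97, 9.85, 9.55 and 9.78 in nitrate treated mice 1 to 5. Control values ran from 9.19 in control 1 over a median of 9.59 to 9.75 in control 2. Nitrate treated mice 1, 2, 3 and 5 lay above every control, and mouse 4 lay within the control range. The means were 9.85 ± 0.20 (SD, n = 5) and 9.54 ± 0.20 (SD, n = 6). The difference of 0.31 ± 0.12 (SE) had a 95% interval of 0.05 to 0.56, a limma P of 0.0209 and a two-sided exact permutation P of 0.0325. The gene no longer passed without nitrate treated mouse 1, with a difference of 0.25 and a limma P of 0.0595, or without nitrate treated mouse 2, with 0.27 and 0.0513. Without control 1 the difference was 0.23 with a limma P of 0.0372, under a fold of 1.2. The adjusted P of Lmod1 lay between 0.206 and 0.534 over the alternatives that gave one.

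Myosin and its kinase come next. Myh11, the heavy chain of smooth muscle myosin, had log2 signals of 15.37, 15.04, 14.99, 14.72 and 14.64 in nitrate treated mice 1 to 5. In controls the lowest was 14.5, the median 14.86 and the highest 15 in control 2. Nitrate treated mice 1 and 2 lay above the controls and mice 4 and 5 in their lower part. The difference was 0.15 ± 0.14 (SE), with a 95% interval of -0.14 to 0.45 and an exact permutation P of 0.327. It was 0.09 without control 1 and 0.05 without nitrate treated mouse 1.

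Mylk, the kinase that phosphorylates the myosin light chain, had log2 signals of 12.02, 11.78, 11.66, 11.46 and 11.57 in nitrate treated mice 1 to 5. Control values ran from 11.21 over a median of 11.64 to 11.78. The nitrate treated mice stood in nearly the order they had for Myh11, with mouse 1 highest in both. The difference was 0.15 ± 0.13 (SE), with a 95% interval of -0.14 to 0.44 and an exact permutation P of 0.303. It was 0.08 without control 1 and 0.07 without nitrate treated mouse 1.

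Tagln, Cnn1 and Smtn code for actin-binding proteins of the contractile filaments. Tagln, also known as SM22 alpha, had log2 signals of 17.90, 17.90, 17.97, 17.90 and 17.93 in nitrate treated mice 1 to 5, an SD of 0.0288. Controls had an SD of 0.137, from 17.60 in control 1 over a median of 17.89 to 18.02. The difference was 0.06 ± 0.07 (SE), with a 95% interval of -0.10 to 0.22 and an exact permutation P of 0.446. Without control 1 it was 0.01.

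Cnn1, or calponin, which restrains the myosin motor on actin, had log2 signals of 16.72, 16.72, 16.62, 16.57 and 16.51 in nitrate treated mice 1 to 5. The lowest control was again control 1 at 15.94, the median was 16.52 and the highest 16.62. Mice 1 and 2 exceeded every control, mouse 3 was level with the highest control, and mice 4 and 5 lay within the control range. The difference was 0.20 ± 0.12 (SE), with a 95% interval of -0.05 to 0.45 and an exact permutation P of 0.0931. Without control 1 it was 0.10.

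Smoothelin (Smtn), a marker of fully contractile smooth muscle, was the 1 gene of the 10 whose groups did not overlap. The log2 signal of its brighter probe, at chr11:3417530-3417589 (mm9), was 15.64, 15.72, 15.61, 15.49 and 15.53 in nitrate treated mice 1 to 5. Among controls the lowest was control 1 at 14.80, the median 15.44 and the highest 15.46. The lowest nitrate treated mouse, at 15.49, was thus above the highest control. Groups did not overlap for 2.75% of all detected probes. The means were 15.60 ± 0.09 (SD, n = 5) and 15.34 ± 0.26 (SD, n = 6). The difference was 0.26 ± 0.12 (SE), with a 95% interval of 0.0036 to 0.52, a limma P of 0.0474 with an adjusted P of 0.342, and a two-sided exact permutation P of 0.00433. It fell just short of a fold of 1.2. Without control 1 the difference was 0.15 ± 0.06 (SE), with a limma P of 0.0226, and the 5 remaining controls lay close together between 15.43 and 15.46.

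The dimmer Smtn probe, at chr11:3420834-3420893 (mm9), did not separate the groups. Its log2 signal was 10.75, 10.77, 10.55, 10.30 and 10.29 in nitrate treated mice 1 to 5. In controls it ran from 10.17 over a median of 10.37 to 10.73. The difference was 0.14 ± 0.13 (SE) with an exact permutation P of 0.305. The files assign the probes to different Smtn transcripts.

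Des codes for desmin, the muscle intermediate filament protein, and its probe is spotted 10 times. The log2 signal was 9.06, 8.83, 9.28, 8.85 and 8.80 in nitrate treated mice 1 to 5. Control values ran from 8.76 over a median of 8.89 to 9.2. The difference was 0.03 ± 0.11 (SE), with a 95% interval of -0.22 to 0.27 and an exact permutation P of 0.801. Without control 1 it was 0.08, and without nitrate treated mouse 3 it was -0.05. The spots of an array differed by an SD of 0.0624 (median over arrays), and the mice by an SD of 0.203 in the nitrate group and 0.182 in the controls.

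Myocd, the myocardin partner of SRF, was the 1 gene with a negative difference. The log2 signal was 11.43, 11.25, 11.46, 11.48 and 11 in nitrate treated mice 1 to 5. Controls ran from 10.91 in control 1 over a median of 11.58 to 11.98. All nitrate values were below the control median, but control 1 was lower still. The difference was -0.21 ± 0.18 (SE), with a 95% interval of -0.60 to 0.17, a limma P of 0.256 and an exact permutation P of 0.303. Without control 1 it was -0.34, with a limma P of 0.0378 and an adjusted P of 0.384, so that the call for Myocd turned on whether this mouse was counted. With 1 other mouse left out the difference lay between -0.26, without control 2, and -0.12, without control 5, and Myocd did not pass.

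**Figure D2:**
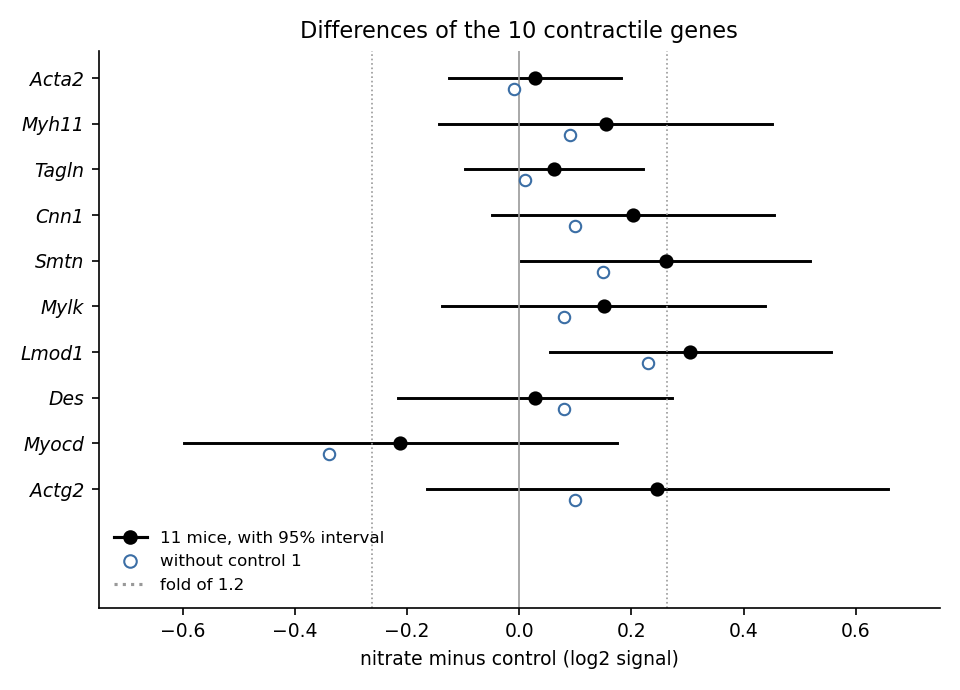
Difference between nitrate and control means of each gene in log2 signal (horizontal axis), with filled points and lines for the estimate and its 95% interval over 11 mice, open points for the estimate without control 1, and dotted lines at a fold of 1.2. The intervals of Lmod1 and Smtn lie above 0, and without control 1 all points but those of Des and Myocd move towards 0.

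The arrays were scanned on 3 slides, each with arrays of both groups, and the differences were not the same on each. On slide 1, with nitrate treated mice 1 and 2 and controls 1 and 2, the median difference over the 10 genes was 0.44, and it was 0.19 with control 1 left out. It was 0.08 on slide 2 (nitrate treated mouse 3, controls 4 and 6) and -0.05 on slide 3 (nitrate treated mice 4 and 5, controls 3 and 5). Lmod1 differed by 0.56, 0.23 and 0.13 on slides 1, 2 and 3, and Smtn by 0.56, 0.15 and 0.08. These were the genes with a positive difference on all slides. Myocd differed by 0.24, -0.30 and -0.51. On slide 1 with control 1 left out Lmod1 differed by 0.28, Smtn by 0.24 and Myocd by 0.06. With slide as a block, Lmod1 differed by 0.32 with a limma P of 0.0224, and Smtn passed both thresholds with a difference of 0.28 and a limma P of 0.0498. All 6 controls, and no nitrate array, lay in 1 column of the slides, so column and treatment cannot be told apart.

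**Figure D3:**
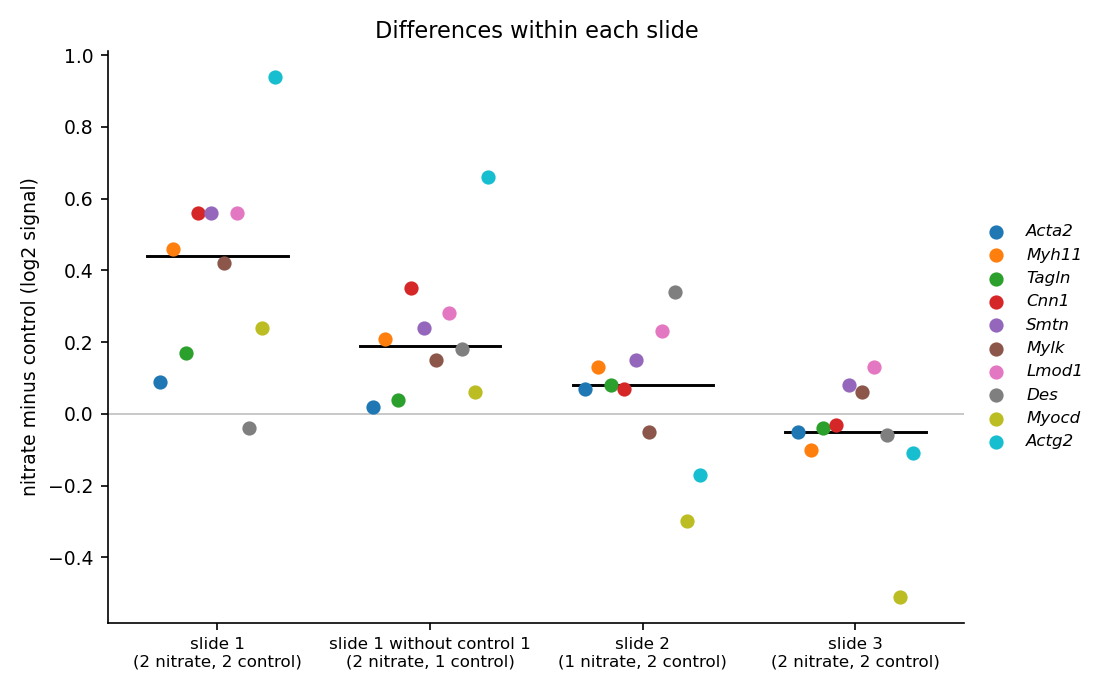
Nitrate minus control log2 signal of each gene (vertical axis, 1 colour a gene) within each of the 3 slides, and within slide 1 without control 1, with black bars at the median of the 10 genes. The median is 0.44 on slide 1, falls to 0.19 there without control 1, and is 0.08 and -0.05 on the other slides.

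Several of the genes varied together from mouse to mouse. Over the 45 pairs, Pearson's r across the 11 mice ranged from -0.36 to 0.95 with a median of 0.53. By Pearson's r, 11 pairs had a permutation P value under 0.05 after adjustment over the 45. For Spearman's rho the smallest adjusted permutation P value was 0.067. Between deviations from the group means of the 11 mice the median of Pearson's r was 0.60. Without control 1 the median of Pearson's r went from 0.53 to 0.24 across 10 mice, and the number of pairs with r above 0.5 went from 24 to 12. A slide held too few mice to give a value of its own.

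Myh11 and Mylk, the motor and its kinase, were closely related with and without control 1. Over 11 mice r was 0.92 (permutation P = 0.00012, adjusted 0.00405) and Spearman's rho was 0.85 (permutation P = 0.00165, adjusted 0.067). It was 0.81 without the 2 mice farthest from the median and 0.89 without control 1. Smtn and Lmod1 kept r = 0.86 without control 1, from 0.87 over all mice (permutation P = 0.00018, adjusted 0.00405; rho = 0.83, permutation P = 0.00298, adjusted 0.067). Cnn1 and Smtn had the highest coefficient, r = 0.95 (permutation P = 0.00052, adjusted 0.0078; rho = 0.73, permutation P = 0.0134, adjusted 0.154), which was 0.79 without the 2 farthest mice and 0.73 without control 1.

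Other relations rested on control 1. Tagln with Cnn1 had r = 0.83 over 11 mice (permutation P = 0.0381, adjusted 0.103; rho = 0.32, permutation P = 0.335, adjusted 0.755), 0.40 without the 2 farthest mice and 0.08 without control 1. Des had r between -0.36 and 0.06 with the other genes over 11 mice, and between 0.17 and 0.38 in all its 9 pairs without control 1. Myocd had r between -0.01 and 0.52 with the other genes over 11 mice. Without control 1 these coefficients ran from -0.56 with Lmod1 and -0.46 with Smtn to 0.32 with Des. For Acta2 and Myocd r was 0.48 (permutation P = 0.131, adjusted 0.236; rho = 0.42, permutation P = 0.199, adjusted 0.526), 0.02 without the 2 farthest mice and 0.18 without control 1.

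**Figure D4:**
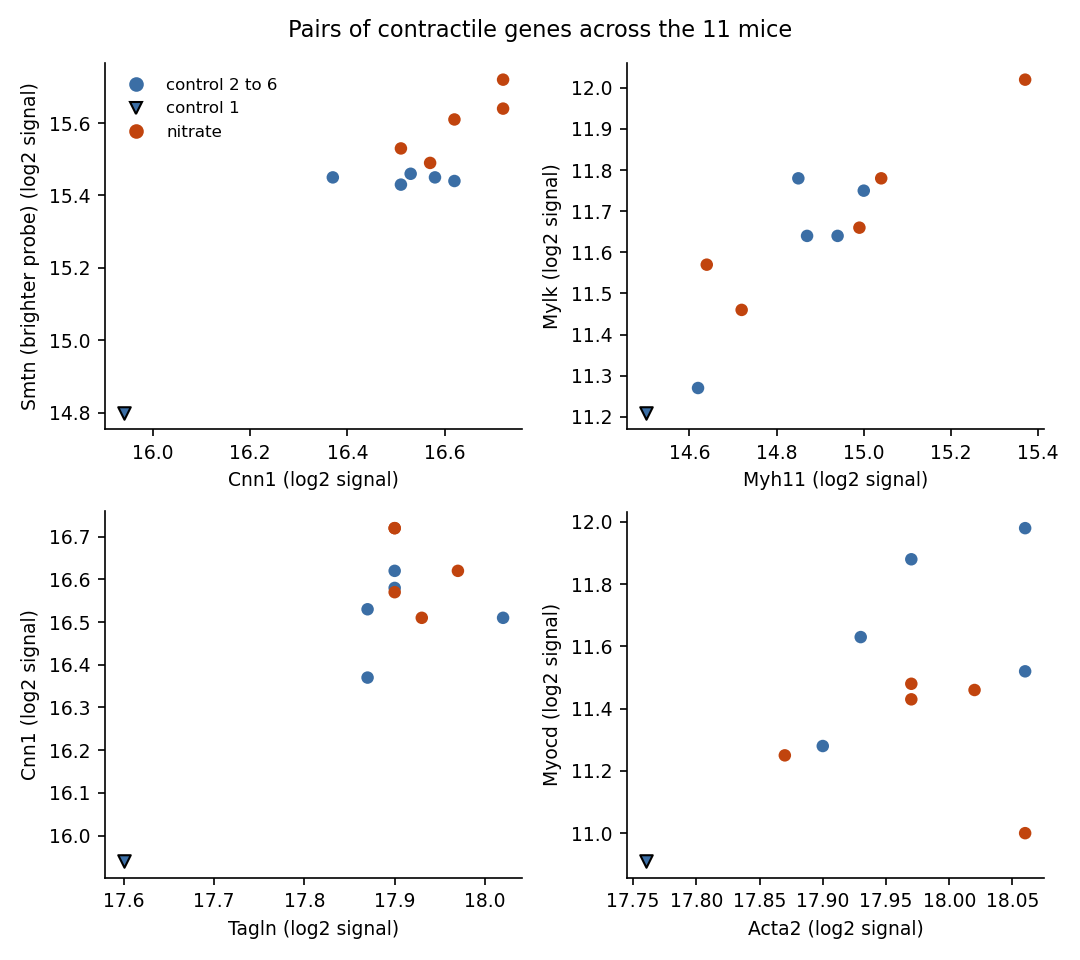
Log2 signals of 4 pairs of contractile genes in the 11 mice (both axes in log2 signal), with nitrate treated mice in orange, controls in blue and control 1 as a triangle. Myh11 and Mylk rise together over all mice (r = 0.92), whereas for Tagln and Cnn1 the relation rests on control 1 (r = 0.83 with it and 0.08 without).

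Among 17392 detected probes with a RefSeq symbol, the 5 genes whose log2 profile was most like the mean profile of the 10 genes were Gm11836, Schip1, Supt5h, Mmp17 and Sox5. Their Pearson's r over the 11 mice was 0.98, 0.97, 0.97, 0.96 and 0.96, given as a description. Schip1 codes for a schwannomin-interacting protein, Supt5h for a transcription elongation factor, Mmp17 for a membrane-bound metalloproteinase and Sox5 for an SRY-box transcription factor. Without control 1 their r was 0.92, 0.93, 0.90, 0.88 and 0.87. Their places were then 14, 8, 26, 47 and 71 among all 23619 detected probes of other genes, with or without a RefSeq symbol.

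The rest of the contractile machinery was given by 64 other genes in 3 lists, of which 61 were detected. Of these, 6 were higher in nitrate treated mice, none was lower and 55 did not pass. The 6 genes are 9.84% of the detected ones, beside 4.16% of all detected probes higher and 9.00% passing in either direction. The median difference was 0.12, and the smallest adjusted P value was 0.194. Without control 1 only Heyl passed.

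Of the 30 filament, dense body and cytoskeletal genes, all detected, 4 were higher, which is 13.3% beside 4.16% of all detected probes. Tpm1, a tropomyosin that lies along the actin filament, differed by 0.27 ± 0.11 (SE) and Lpp, a LIM protein of adhesion sites, by 0.28 ± 0.12 (SE), with limma P values of 0.0356 and 0.0376. Pdlim3 and Pdlim7, PDZ and LIM domain proteins of the actin cytoskeleton, differed by 0.26 ± 0.11 (SE) and 0.28 ± 0.13 (SE), with limma P values of 0.0351 and 0.0497. In each of these 4 genes all 5 nitrate treated mice lay above the control median, 2 or 3 of them lay above the highest control, and the adjusted P values were between 0.32 and 0.347. Without control 1 none of the 4 passed, and the median difference of the list went from 0.13 to 0.05. Myl9, the regulatory light chain that Mylk acts on, differed by 0.11 ± 0.08 (SE), with an exact permutation P of 0.149. Tpm2 differed by 0.20 ± 0.14 (SE) and Cald1, or caldesmon, by 0.17 ± 0.13 (SE), with exact permutation P values of 0.242 and 0.286.

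None of the 16 detected genes that control myosin light chain phosphorylation passed, with a median difference of 0.10, or 0.04 without control 1. None had a limma P value under 0.05, and Mylk3, a kinase of heart muscle, did not meet the detection rule. Of the 15 detected genes of SRF and myocardin transcription, 2 (13.3%) were higher and the median difference was 0.08, or 0.07 without control 1. Csrp2, a LIM protein of smooth muscle that works with SRF, differed by 0.26 ± 0.10 (SE), with a limma P of 0.0186. Heyl, a repressor downstream of Notch, differed by 0.42 ± 0.13 (SE), with a limma P of 0.00684 and an adjusted P of 0.215. Heyl stayed past the thresholds without control 1. Srf itself differed by 0.16 ± 0.08 (SE), with a limma P of 0.0812 and a two-sided exact permutation P of 0.0281, and 4 of the 5 nitrate treated mice lay above the highest control. Foxo4 did not meet the detection rule.

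A further list held genes used as marks of smooth muscle cells in the synthetic, less contractile state. In bulk aorta the cells that gave their signal were not identified. Of the 17 detected genes of the list 4 were higher in nitrate treated mice and none was lower. The median difference was 0.21, or 0.17 without control 1. Of all detected probes 4.16% were higher by the same thresholds. Pdgfrb, a receptor for platelet-derived growth factor, differed by 0.27 ± 0.08 (SE), with an exact permutation P of 0.00433, and its groups did not overlap. Mgp, an inhibitor of calcification in the vessel wall, differed by 0.28 ± 0.09 (SE) and S100a4, a calcium-binding protein, by 0.39 ± 0.13 (SE), with limma P values of 0.0123 and 0.0114. The adjusted limma P values of Pdgfrb, Mgp and S100a4 lay between 0.219 and 0.251. Without control 1 only S100a4 passed. Klf4, a repressor of the contractile program, differed by 0.05 ± 0.20 (SE), with a limma P of 0.806. Spp1 was above background on 6 of the 11 arrays and did not meet the detection rule.

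**Figure D5:**
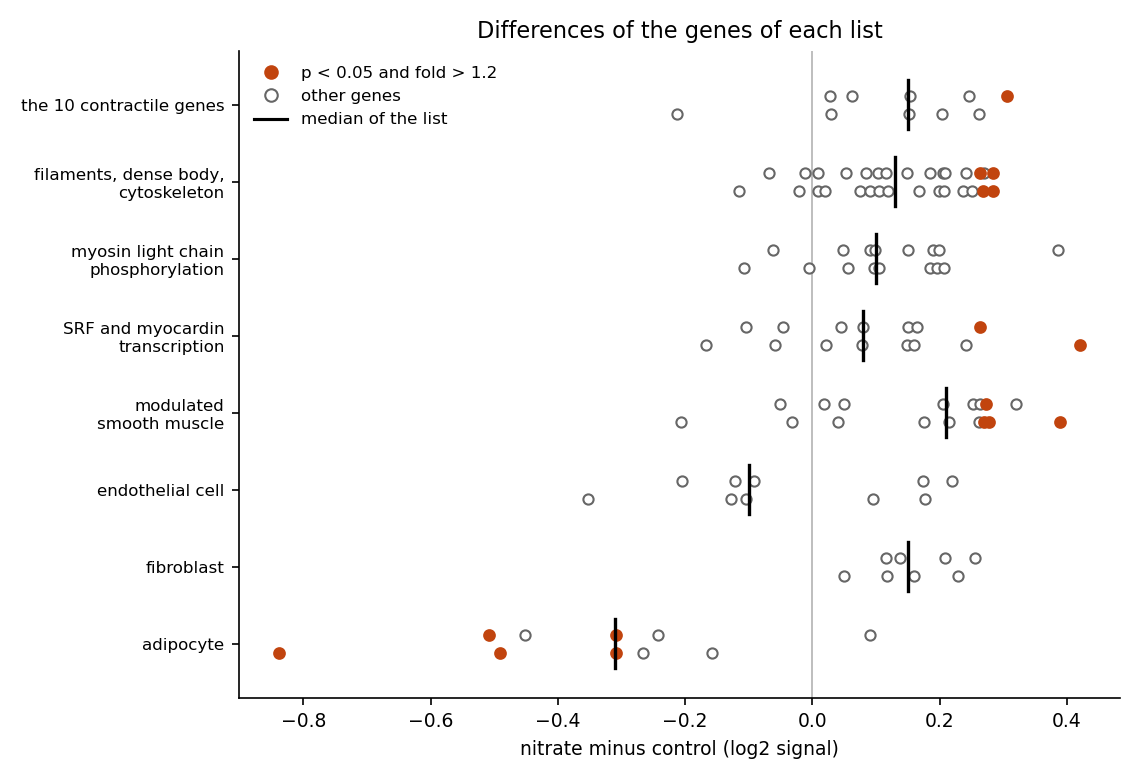
Nitrate minus control log2 signal of the detected genes of each list (horizontal axis), with filled points for genes with P under 0.05 and a fold above 1.2, open points for the rest and bars at the median of the list. Medians of the contractile lists lie between 0.08 and 0.15, that of modulated smooth muscle at 0.21 and that of the adipocyte list at -0.31. All 11 mice are included, and without control 1 the medians of the contractile lists lie between 0.04 and 0.09.

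Markers of other cells that the vessel can hold were set beside these values, and their part in the results was not tested. All of the 10 contractile genes, which include the markers of smooth muscle, were detected on every array. All 10 endothelial markers were detected and none passed, with 4 positive and 6 negative differences and a median of -0.10, or -0.03 without control 1. Pecam1, an adhesion molecule of endothelium, differed by 0.18 ± 0.13 (SE). The 1 endothelial marker with an unadjusted limma P under 0.05 was Vwf, or von Willebrand factor, named after its values were seen, with a difference of 0.22 and a P of 0.0256. Of 10 adipocyte markers 5 were lower and none was higher, with a median difference of -0.31, or -0.25 without control 1. Of all detected probes 4.85% were lower by the same thresholds. Adipoq, or adiponectin, differed by -0.49 ± 0.11 (SE), with an adjusted P of 0.13 in limma, and it was lower in all 5 nitrate treated mice than in any control. The summed adipocyte signal was 279000 to 364000 in nitrate treated mice and 354000 to 487000 in controls, with control 1 at 427000. Without control 1, 4 adipocyte markers remained lower.

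Heart muscle genes varied more than any other marker list and set control 1 and nitrate treated mouse 4 apart. Of 10 such genes 7 met the detection rule of 5 arrays in a group, while Myh7, Myl2 and Tnnc1 did not, with 8, 6 and 3 arrays of both groups above background. Their summed signal was 46600 in control 1 and 73400 in nitrate treated mouse 4, from a lowest value of 2830 in the controls and 3820 in the nitrate group. Myh6, a myosin heavy chain of heart muscle, differed by 1.64 ± 1.29 (SE), with an exact permutation P of 0.286. The median difference of the 7 heart muscle genes was 0.80 and none passed. Without control 1 the median was 1.56 and Myh6 and Tnnt2, or cardiac troponin T, passed as higher in nitrate treated mice. Without control 1 and nitrate treated mouse 4 it was 0.75, and Tnnt2 and Myl4, an atrial myosin light chain, passed as higher. Without both mice the median difference over the 10 contractile genes was 0.13, and Lmod1 and Myocd passed, with differences of 0.31 and -0.37 and limma P values of 0.00455 and 0.036. Of 10 skeletal muscle genes 5 were detected and none passed, and Acta1 differed by 0.33 ± 0.18 (SE). Of the 8 fibroblast, 8 macrophage and 5 pericyte markers, all detected, none passed, with median differences of 0.15, 0.09 and 0.08, which were 0.10, 0.14 and 0.04 without control 1. All 8 fibroblast markers had a positive difference, and 2 of them, Pi16 and Lum, named after their values were seen, had unadjusted limma P values of 0.019 and 0.0298.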

How the data were processed

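RNA of the descending aorta was measured on one-color Agilent mouse arrays. The authors deposited spot intensities from Feature Extraction 10.7.1.1 and a log2 table, made with GeneSpring GX 12.5, which is quantile normalized and centred. That table had a correlation of at least 0.9996 per array with values made as here, but with flagged spots kept and each probe centred. The deposited processed signal, background-subtracted, was raised to at least 1, put on the log2 scale, averaged over the spots of a probe without flagged spots and quantile normalized over the 11 arrays. Its 75th percentile was 189 to 254 per array, and at most 186 of 59305 spots were flagged. The number of arrays limits the precision.

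Probes found and above background, by the deposited flags, in at least 5 mice of 1 group were tested with limma 3.58.1 in R 4.3.3, which was tested on simulated data. For single genes the 462 possible divisions of the mice were enumerated in an exact permutation test (two-sided), which can give no P below 0.00216. Correlations used random permutations of the mice. A gene was represented by its brightest detected probe. Probe positions are mm9, per the file headers, and promoters are from RefSeq. Named were all members, list genes passing both thresholds (at most 10 a list), Myl9, Tpm2, Cald1, Srf, Klf4, Adipoq, Pecam1, Myh6, Acta1 and the 5 most similar genes. Results of 2 list genes are not reported here by name. The members and lists were chosen with earlier results of these data known. Alternatives covered scaling, background, offset, detection, flags, prior variance, slide, replicate number, probe choice and left-out mice. Values within slide 1 without control 1, and list counts without control 1, were chosen after seeing the data.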

Additional observations from a re-analysis of the deposited data

Results flagged for a closer look

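In groups of 5 or 6 mice, the gap between the extreme mouse and its neighbour was set against the range of the group (Dixon's criterion at 95%). Over the 44 groups of values tested 6 were past it, where chance gives about 2.2, since 1 in 20 is passed by chance. Control 1 was low for the brighter Smtn probe (ratio 0.946), Tagln (0.642) and Cnn1 (0.633), and for the summed signal of the filament and dense body list (0.79). The summed signal of heart muscle genes was high in control 1 (0.924) and in nitrate treated mouse 4 (0.897). The contractile gene values therefore turned in several places on 1 control mouse, and the values without it are given in the results.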

How the results depend on the processing

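Over 27 alternative settings, Lmod1 and Smtn kept a positive difference in all of them, Lmod1 between 0.13 and 0.56 and Smtn between 0.08 and 0.56. Myocd ranged from -0.51 to 0.24 and was positive in 2 settings, both within slide 1. Smtn passed under 6 settings. The number of transcripts passing was 1217 with normexp background correction, 3224 without a detection filter, 3 with adjusted P values, 3393 without a limit on the fold, and 1595 to 2423 with 1 mouse left out. Of 23630 detected probes, 2127 passed with the main settings and 2461 with slide as a block. Without control 1 and nitrate treated mouse 4, 1864 passed. The number of members passing, by probe and by gene, was 2 with slide as a block, 2 without control 1 and nitrate treated mouse 4, 2 without a limit on the fold, 0 with adjusted P values, and 0 to 2 with 1 mouse left out, being 0 without nitrate treated mouse 1 or 2. The number of other contractile genes passing was 3 with scaling to the 75th percentile, 3 with the mean over the probes of a gene, 1 without control 1 and nitrate treated mouse 4, 0 with adjusted P values, and 1 to 8 with 1 mouse left out. The median difference over the 10 genes was 0.44 within slide 1, -0.05 within slide 3, and 0.07 to 0.21 with 1 mouse left out. The cause of these shifts was not tested.

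Deviations of mice of equal replicate number, 1 to 5, had correlations of 0.01, 0.12, -0.14, -0.13 and 0.18. Mice of numbers 1, 2 and 5 shared a slide with their namesake, and those of numbers 3 and 4 did not. Mice of unequal number were not compared, so these values do not settle whether the numbers pair the samples. With the replicate block over 5 pairs, 3 other contractile genes passed. All members were well above background, and the spread between mice limits what can be seen, as does quantile normalization for Acta2 and Tagln near the top of the brightness scale.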
